A study of Mus musculus with 24 samples.

Results

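The nuclear genes for the 5 enzyme complexes of oxidative phosphorylation were followed in adipose tissue of mice after partial removal of the kidneys. Members were taken by symbol: every gene beginning with Nduf, Uqcr, Cox4, Cox5, Cox6, Cox7, Cox8 or Atp5, together with Sdha, Sdhb, Sdhc and Sdhd. Of 107 genes found this way, 9 with -ps in the symbol, 4 other annotated pseudogenes (Cox6c2, Ndufa11b, Ndufb4c and Ndufs6b) and the pair Cox7a1 and Cox8b were left out, so that 92 of the 54232 genes in the count table remained. They comprise 36 genes of complex I, 4 of complex II, 8 of complex III, 17 of complex IV, 17 of complex V and 10 that are not core subunits but share the prefixes. The last group holds Ndufaf1 to Ndufaf8, which help to assemble complex I, Cox7a2l, which joins complexes into supercomplexes, and Atp5s. Ndufa4 and Ndufa4l2 were placed with complex IV, where the Ndufa4 protein is known to reside. Of the 92 genes, 91 had more than 10 counts over all libraries and were tested. The exception is a second gene identifier of Atp5o, at 0 counts.

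Each of the 4 groups held 6 male C57Bl6 mice and 1 library per mouse. Control mice had a sham operation and a lentivirus for green fluorescent protein (GFP), NaKtide mice a sham operation and a lentivirus for the NaKtide peptide, PNx mice partial nephrectomy with the GFP virus, and PNx+NaKtide mice partial nephrectomy with the NaKtide virus. NaKtide is a fragment of the Na,K-ATPase designed to block its signalling through Src. The adiponectin promoter drove both transgenes, which aims expression at adipocytes, the NaKtide virus also carried GFP, and both viruses were given into the abdomen on the day of surgery. The series gives the age as 10 weeks, and the tissue is labelled adipose (visceral in the study's methods).

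In oxidative phosphorylation, complexes I (NADH dehydrogenase) and II (succinate dehydrogenase) pass electrons to ubiquinone, complex III (the cytochrome bc1 complex) hands them to cytochrome c, and complex IV (cytochrome c oxidase) gives them to oxygen. Complexes I, III and IV pump protons, and complex V (ATP synthase) uses the proton gradient to make ATP. All but a few subunits are encoded in the nucleus. The nuclear genes are known as targets of the transcription factors NRF1 and GABPA and of the coactivator Ppargc1a. Muscle and brown fat are rich in the proteins.

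The promoters of the members were searched for the cores of NRF1 and GABPA, to show where these letters lie in the member genes. RefSeq promoters (300 bases, of which 250 lie before the start) were found for 72 member symbols. The NRF1 core CGCATGCG, which reads the same on both strands, was present in 11 of the 72 (15.3%) and in 2.77% of the 17492 promoters of protein-coding genes. The GABPA core CCGGAAG, searched on both strands, was present in 18 of the 72 (25.0%) and in 12.9% of protein-coding promoters, and 5 members held both. The 6 stretches below show such a core in genes of complexes I, III and V and in an assembly factor, with the core in capitals and the sequence read along the gene. All lie before the RefSeq start and outside exons of the GENCODE annotation. A match is a description of the letters and does not show binding. The genome build is GRCm38.p6, and the stretches are chr9:44920946-44920992 and chr9:44920918-44920984 (Atp5l, minus strand), chr10:80406851-80406917 (Uqcr11, minus), chr2:174464167-174464233 (Atp5e, minus), chr4:40279617-40279671 (Ndufb6, minus) and chr4:24897941-24898008 (Ndufaf4, plus).
Atp5l, NRF1 core: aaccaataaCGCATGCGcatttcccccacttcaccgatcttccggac
Atp5l, GABPA core: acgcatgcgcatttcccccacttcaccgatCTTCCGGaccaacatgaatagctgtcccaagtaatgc
Uqcr11, GABPA core: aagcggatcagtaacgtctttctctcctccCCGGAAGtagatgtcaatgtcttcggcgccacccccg
Atp5e, GABPA core: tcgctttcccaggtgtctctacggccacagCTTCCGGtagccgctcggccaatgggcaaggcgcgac
Ndufb6, GABPA core: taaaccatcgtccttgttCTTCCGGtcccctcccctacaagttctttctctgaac
Ndufaf4, NRF1 core: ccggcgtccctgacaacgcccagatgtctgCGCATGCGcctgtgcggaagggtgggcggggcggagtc

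The libraries held 679250 to 2979505 counts, and the members took 0.0860% to 0.539% of them, between 584 and 10280 counts in all. Levels are given in CPM (counts scaled to a common library total, with edgeR's TMM factors). A count of 0 allows up to 3 counts for counting error only, and 0 to 16 members were at 0 in a library. Scaled by the library total alone, without TMM factors, these 3 counts are 1.01 to 4.42 CPM. That range is not on the scale of the other CPM, so values are set against this limit below by their counts. Several libraries stood apart in lists of tissue markers. PNx replicate 6 held the highest sums of adipocyte (6882 CPM over 15 genes, against 115 to 1064 in all other libraries but NaKtide replicate 6, at 4078), endothelial (482 CPM), fibroblast progenitor (374 CPM) and erythrocyte markers (1628 CPM). NaKtide replicate 6 held the highest sum of skeletal muscle markers (6306 CPM, against 15.5 to 184 in the others). PNx replicates 1, 2 and 3 held the highest sums of testis germ cell (319 to 574 CPM) and sperm markers (1579 to 2069 CPM) and the lowest sums of kidney markers (788 to 1568 CPM). The kidney sum, led by Nphs1, had a median of 3494 CPM over all libraries and reached 7867 CPM in NaKtide replicate 5. The median adipocyte sum was 338 CPM. Epididymis markers spanned 23.4 to 3006 CPM, macrophage markers 164 to 583 CPM, adrenal markers 60.01 to 186 CPM and brown fat markers 1.66 to 74.2 CPM. Ucp1, the defining gene of brown fat, had too few counts over all libraries to be tested. In bulk tissue, fewer cells of a type and less RNA per cell cannot be told apart.

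The levels of the members were low and uneven. On the per-length FPKM scale of the deposited values, the median member had a mean over the 24 libraries of 7.17 in complex I, 3.09 in complex II, 18.6 in complex III, 8.39 in complex IV and 7.07 in complex V. Ndufa13, a supernumerary subunit of complex I also called GRIM-19, stood above all others with a mean of 259 FPKM and 16016 counts. It alone held more counts than any other complex as a whole except complex V (22243 counts). The next members by FPKM were Ndufa2 (40.7), Atp5mpl (40.0), Ndufb11 (32.6) and Atp5b (31.3). The member with the fewest counts among those tested was the assembly factor gene Ndufaf6, with 13.

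The exons of 29 of the 92 members overlap those of 33 opposite-strand genes (partners below), by 4 to 1955 bases. The library kit kept strand, but the strand setting used in counting was not given in the sources used here, so that reads of the paired genes cannot be told apart. If counting used the setting opposite to the kit, the counts of a member would be reads of the other strand, also for members without a partner, and this was not tested. The 33 partners held 254049 counts, 2.96 times the 85950 counts of all 92 members, and 13 partners held at least 10 times the counts of their member. Cox5a (275 counts), a core-binding subunit of complex IV, lies opposite the unnamed gene model Gm26631 (37321 counts), with 269 shared bases. Ndufb5 (271 counts), of the membrane arm of complex I, lies opposite Mrpl47 (21624 counts), a gene for a mitochondrial ribosomal protein. Cox4i1 (1526 counts), the common form of cytochrome c oxidase subunit 4, lies opposite Emc8 (34398 counts), and Uqcrc2 (3021 counts), a core protein of complex III, opposite Pdzd9 (17204 counts). The reverse held for Ndufa13, whose partner Tssk6, a kinase gene of the testis, had 1318 counts and shares 375 bases with it. Members with a partner held a median of 336 counts per kilobase of exon and members without one 263, where all protein-coding genes with and without an opposite-strand overlap held 131 and 19.9. Of the 31 partners tested, none was called in PNx against Control (edgeR), where 0.0766% of all genes were. At an unadjusted p under 0.05 (edgeR), 2 were higher and 3 lower, against 18.5% and 6.88% of all genes. Emc8, a subunit gene of the membrane protein complex of the endoplasmic reticulum, was among the lower ones, with a log2 fold change of -0.93 (unadjusted p = 0.00462, edgeR).

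**Figure D1:**
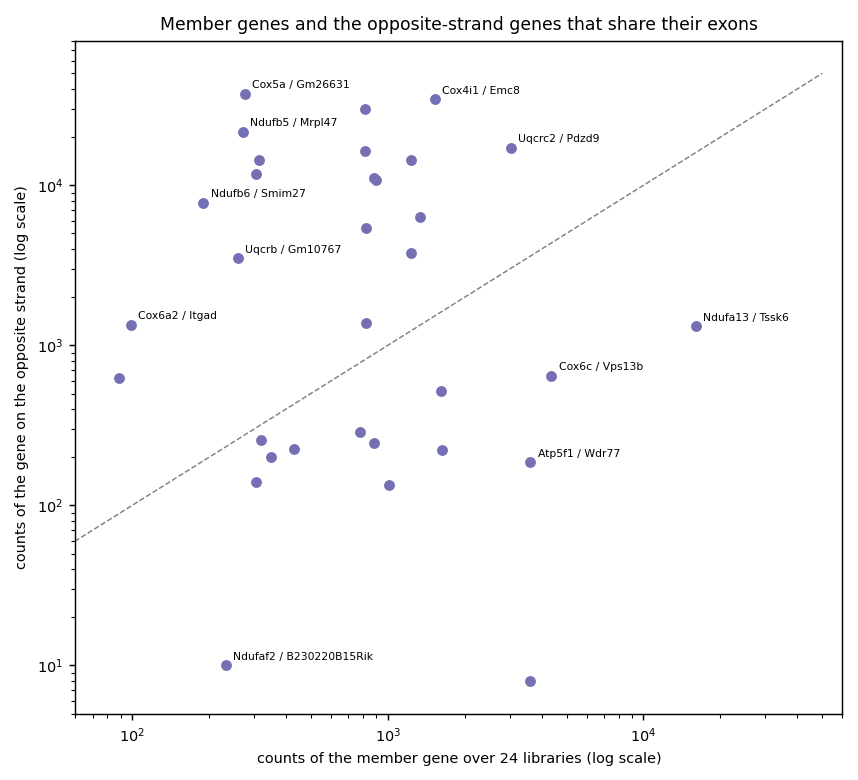
Counts over the 24 libraries of each member gene (horizontal axis, log scale) against those of the gene on the opposite strand that shares its exons (vertical axis, log scale); the dashed line marks equal counts. Of 33 partners 19 lie above the line, Cox5a with Gm26631 farthest above it, and Ndufa13 with Tssk6 lies below it.

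The first comparison asked whether partial nephrectomy changed the members, PNx against Control. No member passed an adjusted p of 0.1 in edgeR, where 0.0766% of the 26116 genes tested did, all of them lower in PNx. At an unadjusted p under 0.05, 12 of 91 members (13.2%) were higher and 2 (2.20%) lower, below the 18.5% higher and 6.88% lower among all genes. The median log2 fold change was 0.48 over the members and 0.36 over all genes. DESeq2 called 26 members higher and 1 lower at an adjusted p of 0.1, out of 90 with an adjusted p, and 30.9% of all genes higher and 4.06% lower, so that neither tool called a larger share of the members than of all genes. limma voom with sample weights called 17 members higher and 30 lower, with a median log2 fold change of -0.33, where it called 63.5% of all genes in either direction. The share of all genes in each direction was not counted for voom, so its split of the members cannot be set beside all genes.

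These medians hid opposite patterns among the libraries. In 65 of 91 members (71.4%) the highest of the 24 libraries was PNx replicate 6, against 18.1% of all genes, and in 39 of these 65 NaKtide replicate 6 came next. PNx replicate 6 also held the highest adipocyte marker sum and NaKtide replicate 6 the next highest, and their part in the result was not tested. The summed CPM of the members was 1214, 1670 and 2034 (lowest, median, highest) in Control, 1150, 1718 and 2448 in NaKtide, 1329, 2104 and 3880 in PNx, and 1411, 1851 and 1909 in PNx+NaKtide. The highest PNx value was that of replicate 6, and all groups overlapped. The 29 tested members with an opposite-strand overlap had median sums of 844 CPM in Control and 1325 CPM in PNx. The 62 tested members without one had median sums of 806 CPM in Control and 739 CPM in PNx. The first of these sets holds Ndufa13, the member with the most counts, which weighs on its sum. Gene by gene the sets were close, with median log2 fold changes in PNx against Control of 0.53 with an overlap and 0.47 without (edgeR). PNx replicate 6 was above every Control library in 76 members (83.5%, against 32.9% of all genes). By contrast, PNx replicates 1, 2 and 3 lay below every Control library in 16 members (17.6%, against 21.05% of all genes) and above every Control library in 11 (12.1%, against 27.6%). No member had all 6 PNx libraries above, or all 6 below, the 6 Control libraries, as did only 0.119% and 0.368% of all genes.

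**Figure D2:**
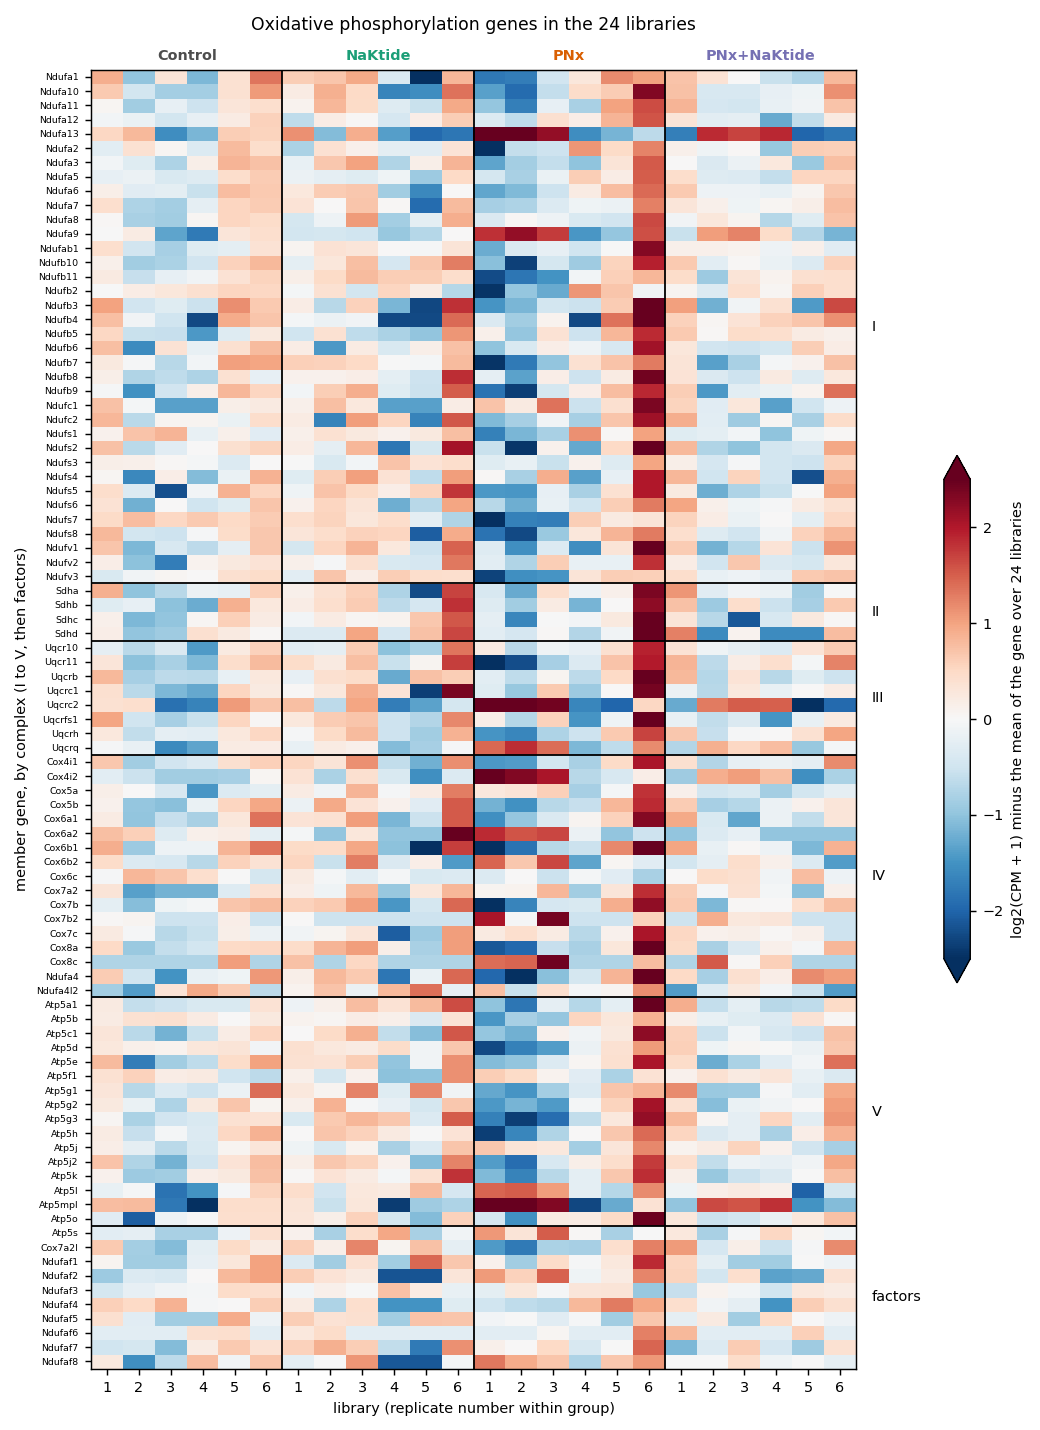
Level of each of the 91 tested members (rows, by complex) in the 24 libraries (columns), as log2(CPM + 1) minus the mean of that gene over all libraries (red above, blue below; values past 2.5 in either direction have the end colour). PNx replicate 6 is the highest library for 65 members, and Ndufa13, Uqcrc2, Cox4i2 and Atp5mpl are instead highest in PNx replicates 1, 2 and 3.

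The direction of the median depended on PNx replicate 6. Without PNx replicate 6 the members' median log2 fold change in PNx against Control moved from 0.48 to -0.28, while that of all genes moved to 0.02, and only 30 of 91 members were above 0. Complex I went from 0.32 to -0.44, complex II from 0.97 to -0.24, complex III from 0.97 to -0.04, complex IV from 0.64 to 0.26 and complex V from 0.33 to -0.50. In that fit 4 members were called higher by edgeR (Cox4i2, Cox7b2, Ndufa9 and Uqcrq), as were 2839 genes in all, and 14.5% of all genes were called in either direction. Without PNx replicates 1, 2 and 3 the members' median was 0.90 and that of all genes -0.01. Then 32 members (35.2%) were higher at an unadjusted p under 0.05, against 6.93% of all genes, 1 was lower, and none was called. That fit, chosen after seeing the data, keeps PNx replicates 4, 5 and 6, so that replicate 6 weighs more in it. Their summed member CPM was 1329, 1677 and 3880, against 1214 to 2034 in Control.

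**Figure D3:**
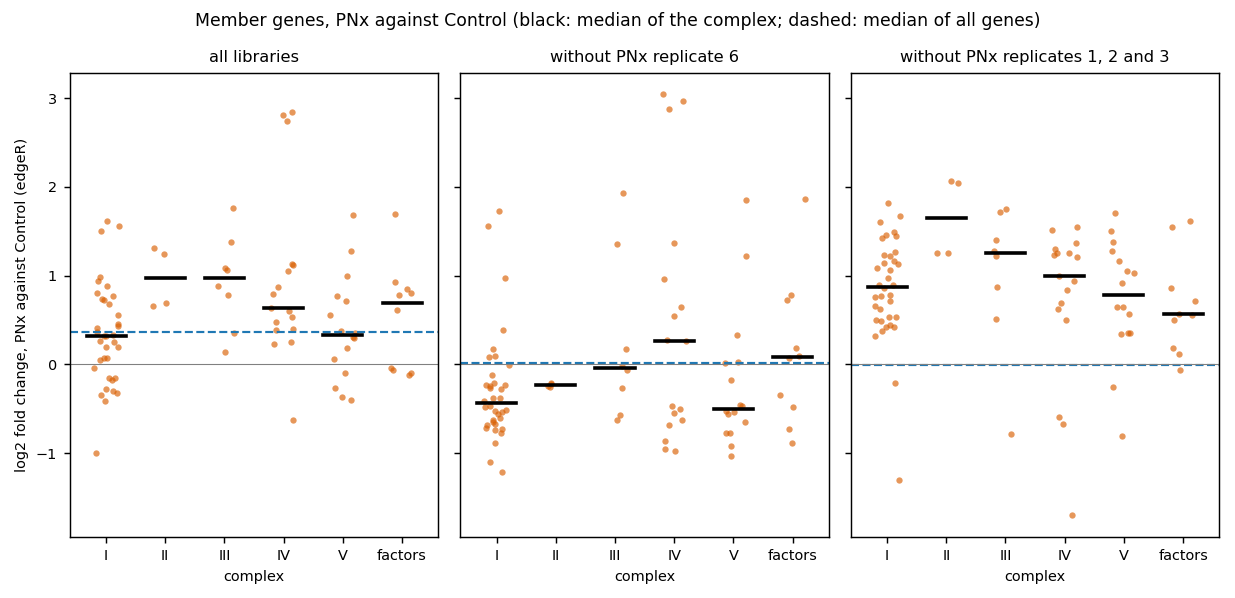
Log2 fold change of each tested member in PNx against Control (edgeR; 1 point per gene, by complex), with all libraries, without PNx replicate 6 and without PNx replicates 1, 2 and 3; black bars are medians of a complex and the dashed line is the median of all genes. The median of all members is 0.48, -0.28 and 0.90 in the 3 panels.

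Complex I, the largest complex, takes electrons from NADH. Its 36 genes summed to 697 ± 198 CPM (SD, n = 6) in Control, 717 ± 181 in NaKtide, 1066 ± 363 in PNx and 809 ± 176 in PNx+NaKtide. Much of this sum was Ndufa13, which read 51.5, 223 and 270 CPM in Control (lowest, median, highest), 39.4, 65.2 and 338 in NaKtide, 51.8, 403 and 1168 in PNx and 38.3, 273 and 570 in PNx+NaKtide. The highest libraries were PNx replicates 1, 2 and 3 (710 to 1168 CPM), followed by PNx+NaKtide replicates 2, 3 and 4 (500 to 570 CPM), and the other 3 PNx libraries (51.8 to 97.0 CPM) lay within the Control range. The log2 fold change in PNx against Control was 1.51 ± 0.84 (SE, adjusted p = 0.244, edgeR). The same 6 libraries held high testis germ cell sums (153 to 574 CPM), as did NaKtide replicates 1 and 3, which were the highest of their group for Ndufa13. The part of these markers in the result was not tested.

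Ndufa9 (chr6:126821721-126849136, minus strand, GRCm38), an accessory subunit near the ubiquinone site, had the smallest unadjusted p of complex I. It ranged from 2.33 to 14.1 CPM in Control (median 11.1) and from 3.14 to 50.9 in PNx (median 35.3), with 4 PNx libraries above all Controls. Its log2 fold change was 1.62 ± 0.57 (adjusted p = 0.137, edgeR), and DESeq2 called it. Ndufa9 shares 67 bases with 1700018A23Rik on the other strand, which held 16388 counts against 811. Ndufs7 (chr10:80249121-80256794, plus strand), the subunit that carries the last iron-sulfur cluster on the way to ubiquinone, lay the other way. It read 36.2, 39.0 and 44.5 CPM in Control and 2.71, 18.8 and 40.0 in PNx, where replicates 1, 2 and 3 (2.71 to 7.27 CPM) were below all other libraries. The log2 fold change of Ndufs7 was -1.0 ± 0.45 (adjusted p = 0.176, edgeR).

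Other abundant members of complex I differed little between the group means. Ndufa2, of the NADH module, averaged 25.7 ± 8.12 CPM in Control and 27.3 ± 20.1 in PNx, and Ndufb11, of the membrane arm, 29.98 ± 8.49 and 23.6 ± 19.6. In both the spread in PNx was more than that in Control, from 2.96 to 52.8 CPM for Ndufa2 and from 5.17 to 50.6 CPM for Ndufb11. Ndufs1, the large iron-sulfur subunit, ranged from 14.7 to 33.1 CPM in Control and from 4.93 to 40.8 in PNx, and it lies opposite Ino80dos (5402 counts against 819). Ndufb5 averaged 4.05 ± 2.28 CPM in Control and 7.84 ± 6.68 in PNx. Neither Ndufs1 (log2 fold change -0.18 ± 0.42) nor Ndufb5 (0.95 ± 0.53) passed the test (adjusted p = 0.801 and 0.240, edgeR). Across complex I, 26 of 36 members had a log2 fold change above 0, 2 were higher and 1 lower at an unadjusted p under 0.05, and DESeq2 called 7 higher and 1 lower, which for the higher ones is a share below the 18.5% (edgeR) and 30.9% (DESeq2) of all genes.

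Complex II, which is also an enzyme of the citric acid cycle, is encoded in the nucleus throughout. Sdha, the flavoprotein that oxidises succinate, read 6.00, 11.4 and 25.1 CPM in Control and 4.85, 13.0 and 70.9 in PNx. Sdhb, the iron-sulfur subunit, read 2.92, 6.75 and 16.0 CPM in Control and 3.14, 7.36 and 42.3 in PNx. The medians of both groups were close, and the PNx maximum came from replicate 6 each time. The membrane anchors were lower still: Sdhc had medians of 3.61 CPM in Control and 3.21 in PNx, and Sdhd 2.16 and 1.63, with PNx replicate 6 at 31.3 and 19.6 CPM. The log2 fold changes in PNx against Control ran from 0.66 ± 0.58 for Sdha to 1.31 ± 0.86 for Sdhd, with adjusted p from 0.252 to 0.450 (edgeR). In all 4 genes the highest of the 24 libraries was PNx replicate 6 and the next was NaKtide replicate 6, the libraries with the highest adipocyte marker sums. The summed CPM of complex II was 10.5 to 32.6 in the other 5 PNx libraries, within or just below the Control range of 13.0 to 37.6.

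Complex III passes electrons from ubiquinol to cytochrome c, and all 8 of its genes had a log2 fold change above 0 in PNx against Control. Uqcrq, the ubiquinone-binding subunit (chr11:53427922-53430831, minus strand), had no opposite-strand partner. It read 6.51, 20.2 and 25.3 CPM in Control, 9.69, 20.1 and 25.2 in NaKtide, 9.42, 54.7 and 80.8 in PNx and 10.8, 26.2 and 41.2 in PNx+NaKtide. In PNx, 4 libraries lay above every Control and 2 (9.42 and 13.7 CPM) within the Control range. Its log2 fold change was 1.38 ± 0.48 (adjusted p = 0.136, edgeR). Uqcrc2, which helps to dimerise the complex, spanned 6.51 to 56.8 CPM in Control and 5.94 to 215 in PNx. Its PNx replicates 1, 2 and 3 (145 to 215 CPM) were the highest of all libraries and its replicates 4 and 5 (7.85 and 5.94) among the lowest, and its log2 fold change of 1.76 ± 0.85 had an adjusted p of 0.195 (edgeR).

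The remaining genes of complex III followed the more common pattern. Uqcrh, the hinge protein, averaged 30.6 ± 8.95 CPM in Control and 33.7 ± 34.7 in PNx (log2 fold change 0.14 ± 0.48, adjusted p = 0.866, edgeR). Its PNx replicates 1, 2 and 3 (8.88 to 16.9 CPM) were below every Control, and replicates 5 and 6 (47.5 and 98.5 CPM) were above. Uqcr10, a small subunit, ranged from 3.501 to 16.7 CPM in Control and from 6.46 to 44.5 in PNx, with all PNx libraries but replicate 6 inside the Control range. DESeq2 called 5 of the 8 genes higher in PNx, where it called 30.9% of all genes higher, and edgeR none.

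**Figure D4:**
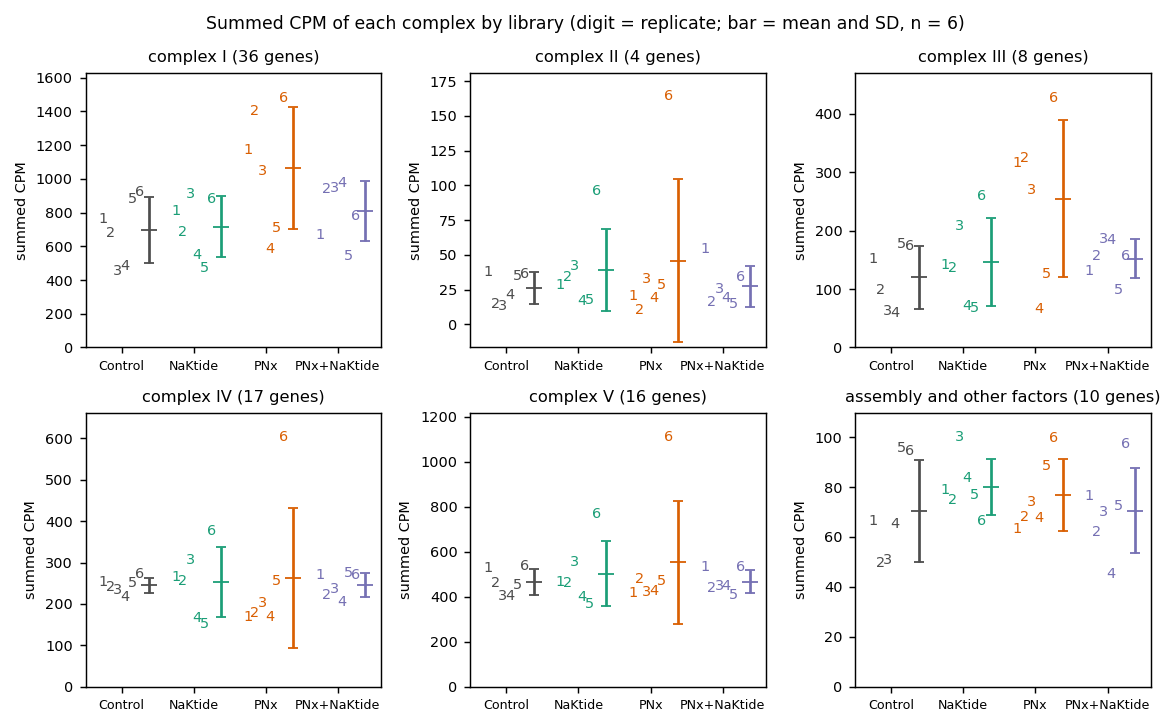
Summed CPM of the members of each complex in every library (digits are replicate numbers) with the mean and SD of each group (n = 6). PNx replicate 6 is the highest PNx library in all 6 panels, and in complexes I and III PNx replicates 1, 2 and 3 are also above every Control library.

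Complex IV consists of a catalytic core encoded by mitochondrial DNA and nuclear subunits, of which several exist as forms used in different tissues. Cox4i1 and Cox6a1, of the common forms, had group means within the spread of the libraries. Cox4i1 read 15.01, 29.9 and 45.5 CPM in Control and 9.86, 18.1 and 120 in PNx (log2 fold change 0.23 ± 0.54, adjusted p = 0.796, edgeR). Cox6a1, a regulatory subunit, averaged 13.4 ± 9.97 CPM in Control and 18.6 ± 22.2 in PNx, with PNx replicate 6 at 62.6. Cox5a, Cox7a2 and Cox7c had medians of 3.86, 4.56 and 7.68 CPM in Control and 6.31, 9.29 and 9.72 in PNx, and all 3 were highest in PNx replicate 6. Their log2 fold changes of 1.05 ± 0.46, 1.12 ± 0.49 and 0.88 ± 0.47 did not pass the test in edgeR (adjusted p = 0.170, 0.167 and 0.231), and DESeq2 called them higher. Cox6c, the abundant small subunit, was the one member of complex IV with the opposite direction. It read 72.3, 115 and 176 CPM in Control, 74.8, 88.1 and 116 in NaKtide, 55.5, 78.8 and 98.5 in PNx and 90.3, 114 and 168 in PNx+NaKtide. PNx replicates 3 and 6 (67.9 and 55.5 CPM) lay below every Control library and the other 4 within the Control range, and replicate 6 was the lowest of all 24. The log2 fold change of Cox6c was -0.63 ± 0.28 in PNx against Control (adjusted p = 0.171, edgeR) and 0.59 ± 0.28 in PNx+NaKtide against PNx (adjusted p = 0.388, edgeR).

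The tissue-restricted forms had few counts, and Cox4i2, Cox7b2 and Cox8c had the highest log2 fold changes of the tested members in PNx against Control. Cox4i2, the form of subunit 4 best known from lung (chr2:152754173-152765037, plus strand), had 203 counts in all and the smallest unadjusted p of any member (0.000936, edgeR). It read 0.58, 0.81 and 2.01 CPM in Control, 0, 1.25 and 2.79 in NaKtide, 0.79, 6.56 and 17.5 in PNx and 0, 2.26 and 5.00 in PNx+NaKtide. PNx replicates 1, 2 and 3 (10.9 to 17.5 CPM) were above all other libraries, and PNx+NaKtide replicates 2, 3 and 4 (3.84 to 5.00 CPM) came next. The log2 fold change of Cox4i2 in PNx against Control was 2.85 ± 0.77 (adjusted p = 0.128, edgeR), and without PNx replicate 6 it was called. Its Control libraries held 1 to 3 counts each, at or under the limit that a count of 0 allows.

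Cox7b2 (59 counts) and Cox8c (80 counts), both described as testis forms, were also highest in the PNx group. Cox7b2 was at or under 0.62 CPM in Control and reached 4.93 and 6.56 CPM in PNx replicates 1 and 3, and Cox8c was at 0 in 5 Control libraries and at 3.45 to 8.07 CPM in PNx replicates 1, 2 and 3. Their log2 fold changes were 2.81 ± 0.98 and 2.75 ± 1.12 (adjusted p = 0.136 and 0.154, edgeR), but most Control values lie under the limit that a count of 0 allows. Cox6b2, another testis form, read 1.75 to 5.55 CPM in Control and 0.79 to 13.1 in PNx, with replicates 1 and 3 (11.1 and 13.1 CPM) the highest of all 24. PNx replicates 1 and 3, high in all of these genes, were also the highest for the testis germ cell and sperm lists, whose part in the result was not tested. Cox6a2, the heart and skeletal muscle form, was highest in NaKtide replicate 6 (11.6 CPM), the library with the highest skeletal muscle sum, and next in PNx replicates 1, 2 and 3 (4.85 to 6.16 CPM). Ndufa4l2, which is induced by hypoxia in other settings, ranged from 0 to 5.91 CPM over the libraries and did not pass the test (log2 fold change 0.53 ± 0.69, adjusted p = 0.626, edgeR).

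Of the left-out forms, Cox8b of muscle and brown fat was at 0 in all Control libraries and at 16.2 CPM in NaKtide replicate 6, and Cox7a1 did not exceed 7.11 CPM, again in NaKtide replicate 6. The other 5 NaKtide libraries were at 0 for Cox8b, which was not called in NaKtide against Control (adjusted p = 0.889, edgeR). Across complex IV as a whole, 16 of 17 members had a log2 fold change above 0 in PNx against Control, 5 were higher and 1 lower at an unadjusted p under 0.05, and DESeq2 called 7, all higher, against 18.5% (edgeR) and 30.9% (DESeq2) of all genes higher.

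Complex V, the ATP synthase, had the most counts after complex I. Atp5b, the catalytic beta subunit (chr10:128083273-128090391, plus strand), had the most counts of the members without an opposite-strand partner (5808). It read 133, 154 and 174 CPM in Control, 102, 143 and 168 in NaKtide, 47.6, 117 and 243 in PNx and 104, 126 and 170 in PNx+NaKtide. PNx replicates 1, 2 and 3 (47.6 to 73.9 CPM) were below all other libraries and replicate 6 was above all, and the group mean was 131 ± 79.4 CPM against 157 ± 14.9 in Control (SD, n = 6). The log2 fold change of Atp5b was -0.26 ± 0.33 (adjusted p = 0.608, edgeR). Atp5k, subunit e of the membrane part, averaged 15.3 ± 6.80 CPM in Control and 18.7 ± 19.7 in PNx, with NaKtide replicate 6 and PNx replicate 6 at 55.0 and 56.2.

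Of the smaller genes of complex V, Atp5mpl, which encodes a short proteolipid of the enzyme, resembled Ndufa13. It read 2.33, 31.5 and 40.5 CPM in Control and 3.93, 73.8 and 192 in PNx, with replicates 1, 2 and 3 at 118 to 192 CPM and the other 3 within the Control range. Its log2 fold change was 1.69 ± 0.80 (adjusted p = 0.189, edgeR). Atp5l, subunit g, ranged from 2.96 to 20.1 CPM in Control and from 7.72 to 39.6 in PNx. The values were 1.28 ± 0.48 in PNx against Control and -1.17 ± 0.48 in PNx+NaKtide against PNx on the log2 scale (adjusted p = 0.141 and 0.357, edgeR), and DESeq2 called both. Atp5l lies opposite the unnamed model Gm30934, with 30008 counts against 815. Atp5o, the stalk subunit that confers sensitivity to oligomycin, averaged 4.91 ± 2.54 CPM in Control and 9.74 ± 11.7 in PNx, the latter with replicate 6 at 33.2. It has the most opposite-strand bases of complex V, 702 in all. In complex V 12 of 16 tested members were above 0 in PNx against Control, 2 were higher at an unadjusted p under 0.05, and DESeq2 called 4, against the same 18.5% and 30.9% of all genes higher.

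The 10 genes for assembly and other factors summed to 70.4 ± 20.3 CPM in Control, 80.1 ± 11.2 in NaKtide, 76.7 ± 14.3 in PNx and 70.5 ± 17.1 in PNx+NaKtide. Ndufaf3 was the most abundant on the FPKM scale (21.1). Ndufaf2 read 1.39, 3.00 and 8.03 CPM in Control and 3.14, 7.02 and 11.3 in PNx (log2 fold change 0.81 ± 0.59, adjusted p = 0.361, edgeR), and DESeq2 called it. It shares 1955 exon bases with B230220B15Rik on the other strand, the most of any member, but that gene had only 10 counts. Ndufaf6 was at 0 in most libraries and reached 1.89 CPM in PNx replicate 6, from 5 counts, where a count of 0 allows up to 3.

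The second comparison asked whether NaKtide changed the members after nephrectomy, PNx+NaKtide against PNx. Neither the members nor any other gene passed an adjusted p of 0.1 in edgeR (0% of all genes). At an unadjusted p under 0.05, 1 member was higher (Cox6c) and 7 were lower (Cox6a2, Atp5l, Uqcrfs1, Cox5a, Cox4i2, Ndufc1 and Cox7b2), or 1.099% and 7.69%, against 4.07% and 8.6% of all genes. The median log2 fold change was -0.41 over the members and -0.37 over all genes, and 75 of 91 members were below 0. The same 6 PNx libraries enter both this comparison and the first. DESeq2 called 10 of the 82 members with an adjusted p lower and none higher, where it called 7.91% of all genes lower and 1.72% higher. Cox6a2 had the largest fold, with 0 to 0.71 CPM in PNx+NaKtide against 0 to 6.16 in PNx (log2 fold change -3.43 ± 1.12, adjusted p = 0.357, edgeR). All of its PNx+NaKtide values lie under the limit that a count of 0 allows, and DESeq2 gave it no adjusted p. Cox6a2 (99 counts) shares 70 bases with Itgad on the other strand (1342 counts). Itgad too was highest within PNx in replicates 1, 2 and 3 (70.9 to 113.5 CPM). Its log2 fold change was -1.68 ± 1.07 (adjusted p = 0.454, edgeR), and its part in the reads of Cox6a2 was not tested. Without PNx replicate 6 the median of the members became 0.37 and that of all genes -0.11, and without PNx replicates 1, 2 and 3 the values were -0.86 and 0.

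By complex, the median log2 fold change in PNx+NaKtide against PNx was -0.27 in complex I, -0.86 in complex II, -0.81 in complex III, -0.66 in complex IV and -0.28 in complex V. Each had moved to between -0.01 and 0.46 once PNx replicate 6 was left out. The summed CPM of the members in PNx+NaKtide had the narrowest spread of the groups (1773 ± 187 CPM, against 2259 ± 886 in PNx), and its libraries lay within the range of the PNx libraries.

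The third comparison, NaKtide against Control, addressed the peptide in sham-operated mice. No gene was called by edgeR (0%). None of the 91 members reached an unadjusted p under 0.05, against 2.04% of all genes higher and 1.91% lower. DESeq2 called no member, 0.00776% of all genes higher and 0.00388% lower. The members' median log2 fold change was 0.31 and that of all genes 0, and 72 of 91 members were above 0. Complex II had the highest median of the complexes, 0.75 over its 4 genes, with Sdhb at 12.7 ± 9.81 CPM in NaKtide and 7.68 ± 4.84 in Control. In each Sdh gene NaKtide replicate 6 was the highest library of its group. Without PNx replicate 6 and NaKtide replicate 6 the median of the members was 0.13.

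The fourth comparison, PNx+NaKtide against NaKtide, concerned nephrectomy in the presence of the peptide. Again no gene was called by edgeR (0%). No member was higher and 2 were lower at an unadjusted p under 0.05 (Cox6a2 and Cox5a), against 1.5% and 2.58% of all genes. DESeq2 called no member, and 0.00388% of all genes in each direction. The members' median log2 fold change was -0.23, and that of all genes 0.04. Cox6a2 had a log2 fold change of -3.17 ± 1.155 (adjusted p = 1, edgeR), with NaKtide replicate 6 at 11.6 CPM and the other 5 NaKtide libraries at 0 to 1.40. Cox5a had a median of 5.88 CPM in NaKtide and 3.46 in PNx+NaKtide.

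The difference of the effects of nephrectomy with and without the peptide was tested as an interaction. No gene was called by edgeR (0%). At an unadjusted p under 0.05, 1 member was above 0 (Cox6c) and 6 were below (Cox5a, Cox6a2, Atp5l, Uqcrfs1, Uqcrc1 and Sdhc), or 1.099% and 6.59%, against 3.48% and 5.79% of all genes. Cox6c had an interaction of 1.03 ± 0.40 on the log2 scale (adjusted p = 0.492, edgeR), and Sdhc one of -2.22 ± 1.04 (adjusted p = 0.528, edgeR). The median was -0.74 over the members and -0.35 over all genes. DESeq2 called 1 member, which was below 0, and 0.29% of all genes in each direction. Without PNx replicate 6 and NaKtide replicate 6 the members' median turned to 0.27.

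Genes that work with the complexes were read from 6 lists, and no gene on them was called by edgeR in any of the 5 contrasts. Their counts in PNx against Control stand beside 18.5% of all genes higher and 6.88% lower at an unadjusted p under 0.05, and a median over all genes of 0.36. In PNx against Control, the 13 subunits encoded by mitochondrial DNA had a median log2 fold change of 0.40, with 1 higher at an unadjusted p under 0.05. That gene was mt-Nd2, of complex I, with medians of 12.2 CPM in Control and 24.5 in PNx (log2 fold change 1.28 ± 0.57, adjusted p = 0.173, edgeR). mt-Co2, subunit 2 of complex IV, came next (medians of 102 and 157 CPM). Both were highest in PNx replicate 6 (131 and 1134 CPM). The summed level of the 13 genes was lowest in PNx replicate 1 (1853 CPM) and highest in NaKtide replicate 5 (13216 CPM). In NaKtide against Control 4 of the 13 were higher at an unadjusted p under 0.05, against 2.04% of all genes, with a median of 0.51 against 0 over all genes.

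Of 39 tested assembly factors outside the symbol rule, 4 were higher and none lower in PNx against Control at an unadjusted p under 0.05, with a median of 0.11. Tmem70, which is needed to assemble ATP synthase, had medians of 0.60 CPM in Control and 2.62 in PNx (log2 fold change 2.36 ± 0.80, adjusted p = 0.135, edgeR). Cox16, an assembly factor of complex IV, was at 0 in every Control library and had 21 counts in all. Among 10 electron carriers and carriers of ATP, ADP and protons, 1 was higher, Etfdh, which feeds electrons from fatty acid oxidation to ubiquinone (medians of 10.5 and 31.9 CPM, log2 fold change 1.67 ± 0.61, adjusted p = 0.141, edgeR), and the median was 0.65. Etfa, which acts just before Etfdh, had medians of 4.16 and 3.05 CPM.

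Of 14 regulators of mitochondrial biogenesis, 3 were higher and 1 lower, with a median of 0.18. Polg, the mitochondrial DNA polymerase, had medians of 23.4 CPM in Control and 60.3 in PNx (adjusted p = 0.138, edgeR), and Ppargc1b, a coactivator of respiratory genes, medians of 2.51 and 9.52 (adjusted p = 0.145, edgeR). Polg was highest in PNx replicate 2 and Ppargc1b in PNx replicate 1. Of 16 enzymes of pyruvate oxidation and the citric acid cycle 2 were higher and none lower, with a median of 0.58. They were Ogdh, of the oxoglutarate dehydrogenase complex (medians of 19.4 and 64.5 CPM), and Dld, which that complex shares with pyruvate dehydrogenase (3.97 and 8.98 CPM). The summed level of the 16 enzymes was highest in PNx replicate 6 (780 CPM, against a median of 240 CPM over all libraries). Of the 9 tissue-restricted isoforms, left-out forms included, 3 were higher (Cox4i2, Cox7b2 and Cox8c) and none lower, with a median of 1.13.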

How the data were processed

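RNA sequencing data of 24 adipose libraries were used, grouped by their titles. Per the labels, stranded mRNA libraries were made. The authors trimmed reads with Trimmomatic 0.38, aligned them to GRCm38 with HISAT2 2.1.0 and counted reads per gene. Which strand setting and annotation release were used is not given in the sources used here. Raw counts, deposited by the authors, served for the main tests, and the deposited FPKM for levels and alternatives. Deposited normalized counts were not used.

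Symbols came from GENCODE M21 (54165 of 54232 genes matched). Genes with more than 10 counts in all were tested in edgeR 4.0.16 (R 4.3.3; TMM scaling, robust quasi-likelihood F-test, 1 fit of 4 group means), with Benjamini-Hochberg adjustment over 26116 genes and a threshold of 0.1. Standard errors are the log2 fold change over the square root of F. Alternatives were DESeq2 1.42.0 and its size factors, library size scaling, other filters, limma 3.58.1 (voom with sample weights, and log2 FPKM with a pseudocount of 1 or 0.1), only the compared groups, the replicate number as a block, members without an opposite-strand overlap, and libraries left out. The fit was tested on simulated counts. Libraries held 679250 to 2979505 counts. All pairs of libraries within a group differed by more than sampling noise (lowest chi-square per degree of freedom 1.57).

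The members, gene lists and named-gene rule were chosen with earlier results of these data known. Named are, per complex, the 3 members of highest FPKM and the 2 of at least 1 CPM with the smallest unadjusted p in PNx against Control, complex II, tissue-restricted forms, extremes of counts per kilobase, members with most shared bases, and 2 genes per pathway list. Single members and partners outside the rule were named after their values were seen. P-values measure the spread between mice.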

Additional observations from a re-analysis of the deposited data

Results flagged for a closer look

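Dixon's test was applied to 152 groups of 6 libraries (summed CPM per complex, and the CPM of each named member). In 23 of them (15.1%) 1 library stood past the 95% limit, which flags about 1 in 20 groups of independent, normally distributed values. The groups here share libraries and complex sums contain named genes, so they are not independent, and CPM were not transformed. A group with all but 1 library at 0 always passes the limit. The share of 15.1% therefore does not measure an excess over chance. PNx replicate 6 was the high library in 12. It stood at 164 CPM for complex II (next 32.6), 602 for complex IV (next 256) and 1108 for complex V (next 478). By gene it stood at 70.9 CPM for Sdha, 42.3 for Sdhb, 31.3 for Sdhc, 19.6 for Sdhd, 44.5 for Uqcr10, 120 for Cox4i1, 62.6 for Cox6a1, 33.2 for Atp5o and 1.89 for Ndufaf6. NaKtide replicate 6 was the high library in 5, at 95.7 CPM for complex II, 31.7 for Sdhb, 11.6 for Sdhc, 11.6 for Cox6a2 and 55.0 for Atp5k. PNx+NaKtide replicate 5 was low for all members together (1411 CPM, next 1735). The others were PNx+NaKtide replicate 1 for Sdha (29.3 CPM), PNx+NaKtide replicate 2 for Ndufb11 (low, 14.5 CPM), Control replicate 6 for Cox6a1 (32.1 CPM), Control replicate 5 for Cox8c (2.47 CPM, the others at 0) and NaKtide replicate 1 for Cox7b2 (0.45 CPM, the others at 0), the last of which lies under the limit that a count of 0 allows.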

How the results depend on the processing

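The count of 0 called members held in every contrast with an adjusted p of 0.05, no filter, the compared groups only, limma on log2 FPKM with either pseudocount, members without an opposite-strand overlap and without PNx replicates 1, 2 and 3. In PNx against Control members were called by DESeq2 (27, and 34.9% of all genes), edgeR with DESeq2 size factors (24 and 33.3%), library size scaling (7 and 15.7%), the filterByExpr filter (5 of 74 members and 17.9%), voom with sample weights (47, and 63.5%) and without PNx replicate 6 and NaKtide replicate 6 (7 and 21.1%). In PNx+NaKtide against PNx DESeq2 called 10 (9.63% of all genes) and voom 33 (42.4%), and for the interaction 1 (0.58%) and 16 (25.2%). Leaving out 1 library gave 0 to 13 calls in PNx against Control (13, 9 and 4 without PNx replicates 4, 5 and 6, against 27.6%, 22.9% and 14.5% of all genes) and 0 in the other contrasts.

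With 1 library left out, the members' median log2 fold change ranged from -0.28 (without PNx replicate 6) to 0.67 in PNx against Control, from -0.57 to 0.37 (without PNx replicate 6) in PNx+NaKtide against PNx, from 0.13 to 0.47 in NaKtide against Control, from -0.38 to -0.06 in PNx+NaKtide against NaKtide and from -0.87 to -0.03 for the interaction. It was -0.33, 0.37 and 0.10 with voom, and -0.28, 0.37 and 0.27 without PNx replicate 6 and NaKtide replicate 6, in the first and second of these comparisons and the interaction. Without PNx replicates 1, 2 and 3 they were 0.90, -0.86 and -1.17. The cause was not tested.

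Members at an unadjusted p under 0.05 were also counted in left-out fits, computed after seeing the data. Without PNx replicates 1, 2 and 3, which leaves PNx replicates 4, 5 and 6, they numbered 33 in PNx against Control (36.3%, against 10.7% of all genes). In PNx+NaKtide against PNx they numbered 22 in that fit (24.2%, against 14.6% of all genes). Without any 1 library they numbered 6 to 20 in the first comparison and 4 to 13 in the second. With all libraries 25.4% and 12.7% of all genes passed. The first was 8, 7, 6 and 7 without Control replicates 2, 3 and 4 and PNx replicate 3, and the second 5, 4, 5, 5 and 13 without PNx+NaKtide replicates 4, 5 and 6 and PNx replicates 3 and 4. PNx replicate 6 was highest for 72 members with library size scaling and 61 in FPKM. Of 4340 values of named members under alternatives, 63 became called, 147 changed sign while not called and none changed sign while called. Those that overlap an opposite-strand gene held 0.107% of all counts and the others 0.0986%.

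With the replicate number as a block no member was called, and the medians were 0.15, -0.09, 0.31, -0.24 and -0.37 in the 5 contrasts. Same-numbered libraries correlated from -0.59 to 0.71, with 19 of 36 correlations over 0.1, and 10 of 24 libraries correlated best with their own number. The labels do not say that the numbers pair mice, and whether they mark a batch was not tested. The median count of a member in a library ranged from 3 to 98, which limits the precision.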
